A study of Homo sapiens with 6 samples.

Results

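Positions 901 to 1200 of human 18S ribosomal RNA, which lie in the central domain of the molecule, were taken from per-position read tables of 18S and 28S rRNA. All 300 positions of this stretch, out of 6939 positions in both rRNAs, had at least 100 crossing reads in every library and were analysed in all 3 conditions. The stretch holds 94 G, 81 A, 67 C and 58 U. Of the 58 U, 7 are listed pseudouridines (Ψ918, Ψ966, Ψ1046, Ψ1056, Ψ1081, Ψ1136 and Ψ1174), 4 are sites whose modification is less certain (Ψ1003, Ψ1004, Ψ1045 and Ψ1177, called doubtful sites here) and 47 are on neither list. Sites were taken by their listed positions with no threshold on a measured value, although the stretch was chosen with earlier results of these data known.

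The RNA came from HEK293T/17, a human embryonic kidney cell line, and held molecules longer than 200 nt. Its fragments were treated with CMC or mock-treated, and each was then copied in 1 of 3 ways, namely with HIV reverse transcriptase (HIV RT) and magnesium, with SuperScript III in manganese, or with SuperScript III in magnesium. Where manganese or magnesium is named alone, it stands for SuperScript III with that cation. The comparison addresses how often uridines and pseudouridines in different contexts are misread, or end the copying, after CMC. This gave 6 libraries, 3 with CMC and 3 mock, with 1 library per group and no replicate. Each call therefore compares 2 libraries and not 2 treatments. The HIV RT tables were named differently from the SuperScript III tables, and whether trimming, alignment or counting differed between them is not given in the sources used here. This touches every value set between the enzymes, stops above all. Intervals cover counting error only, since the reads were amplified and no molecular identifiers are described.

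Pseudouridine is an isomer of uridine in which the base is joined to the ribose through carbon instead of nitrogen. In eukaryotic rRNA it is made at chosen uridines by dyskerin, guided by H/ACA small nucleolar RNAs that pair with the bases around the target. It pairs with A as uridine does, so an untreated site is mostly copied as U. CMC is a carbodiimide that forms bulky adducts on U, G and Ψ, and the adduct on Ψ is the one that best withstands alkali. An alkaline step after CMC is not described in the sources used here. A reverse transcriptase that meets an adduct may stop before it, or copy past it and insert a wrong base. The central domain of 18S rRNA forms much of the platform of the small ribosomal subunit.

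The 10 bases on each side of every site are shown because stops and wrong bases are described relative to the neighbouring bases. The sequences are those of the deposited tables, written 5′ to 3′, with each listed or doubtful site in capitals. The last line shows an unlisted U in capitals, U1112, whose stop share rose in all 3 conditions with no listed or doubtful site within the stretch shown. Reverse transcriptase moves through these sequences from right to left.
Ψ918: aggccaugauUaagagggacg
Ψ966: gaggugaaauUcuuggaccgg
Ψ1003 and Ψ1004: gcgaaagcauUUgccaagaaug
Ψ1045 and Ψ1046: aagucggaggUUcgaagacgau
Ψ1056: ucgaagacgaUcagauaccgu
Ψ1081: guuccgaccaUaaacgaugcc
Ψ1136: gccgggcagcUuccgggaaac
Ψ1174 and Ψ1177: ggggggaguaUggUugcaaagcug
U1112: gcggcggcguUauucccauga
These lines cover positions 908 to 928, 956 to 976, 993 to 1014, 1035 to 1056, 1046 to 1066, 1071 to 1091, 1126 to 1146, 1164 to 1187 and 1102 to 1122, in the order shown. RefSeq lists 5 human 18S genes of the same length as the deposited sequence, 1869 nt, placed on chromosomes 21 and 22 or unplaced. The gene copies were not told apart.

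Coverage was deep over the whole stretch. The median number of crossing reads per position was 110009 in the CMC library and 330078 in the mock library with HIV RT. With SuperScript III it was 123704 against 261542 in manganese and 112148 against 187740 in magnesium. The lowest crossing count in the stretch was 20063. At the 11 sites the 95% Wilson interval of a share was at most 0.334 percentage points to either side for mutation and 0.430 for stops.

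Each position has a mutation share and a stop share. The mutation share is the percentage of crossing reads that carry another base. The stop share is the number of reads that stop at the position over stops plus crossing reads. A change is the CMC share minus the mock share in percentage points. A position was called when it differed by at least 5 points and its p from a two-sided Fisher's exact test was under 0.05 once adjusted (Benjamini-Hochberg, both rRNAs together). The verbs rose and fell are used for such calls alone.

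Stops were more frequent in the CMC library than in the mock library at 35 to 40 positions of the central domain, and mutations at 0 to 7. Stop share rose at 40 of the 300 positions with HIV RT (13.3%, where 10.1% of all tested positions rose), at 35 with SuperScript III in manganese (11.7%, against 8.38% of all) and at 39 with SuperScript III in magnesium (13.0%, against 9.22% of all). Uridines made up 26, 23 and 31 of these. Mutation share rose at 6 positions with HIV RT (2%, against 1.05% of all), at 7 in manganese (2.33%, against 1.29% of all) and at 0 with SuperScript III in magnesium, where 0.159% of all positions rose.

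The listed pseudouridines showed mainly stops. All 7 rose in stop share with HIV RT, 5 with SuperScript III in manganese, and 7 with SuperScript III in magnesium. Their median stop change was 14.1, 9.62 and 23.0 points, against 3.10, 2.36 and 4.34 points for the 47 unlisted U of the stretch and 0.154, 0.0238 and 0.0051 points for all tested positions. In mutation share only Ψ1174 rose with HIV RT, Ψ1081 and Ψ1174 rose in manganese, and none did with SuperScript III in magnesium. The median mutation change of the 7 sites was 1.90, 2.28 and 0.207 points. Over the other 31 listed pseudouridines of 18S the median mutation change was 5.13, 4.63 and 0.548 points, and the median stop change 20.4, 7.77 and 22.0 points. Sites are not replicates, and the difference between the 2 lists was not tested.

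**Figure D1:**
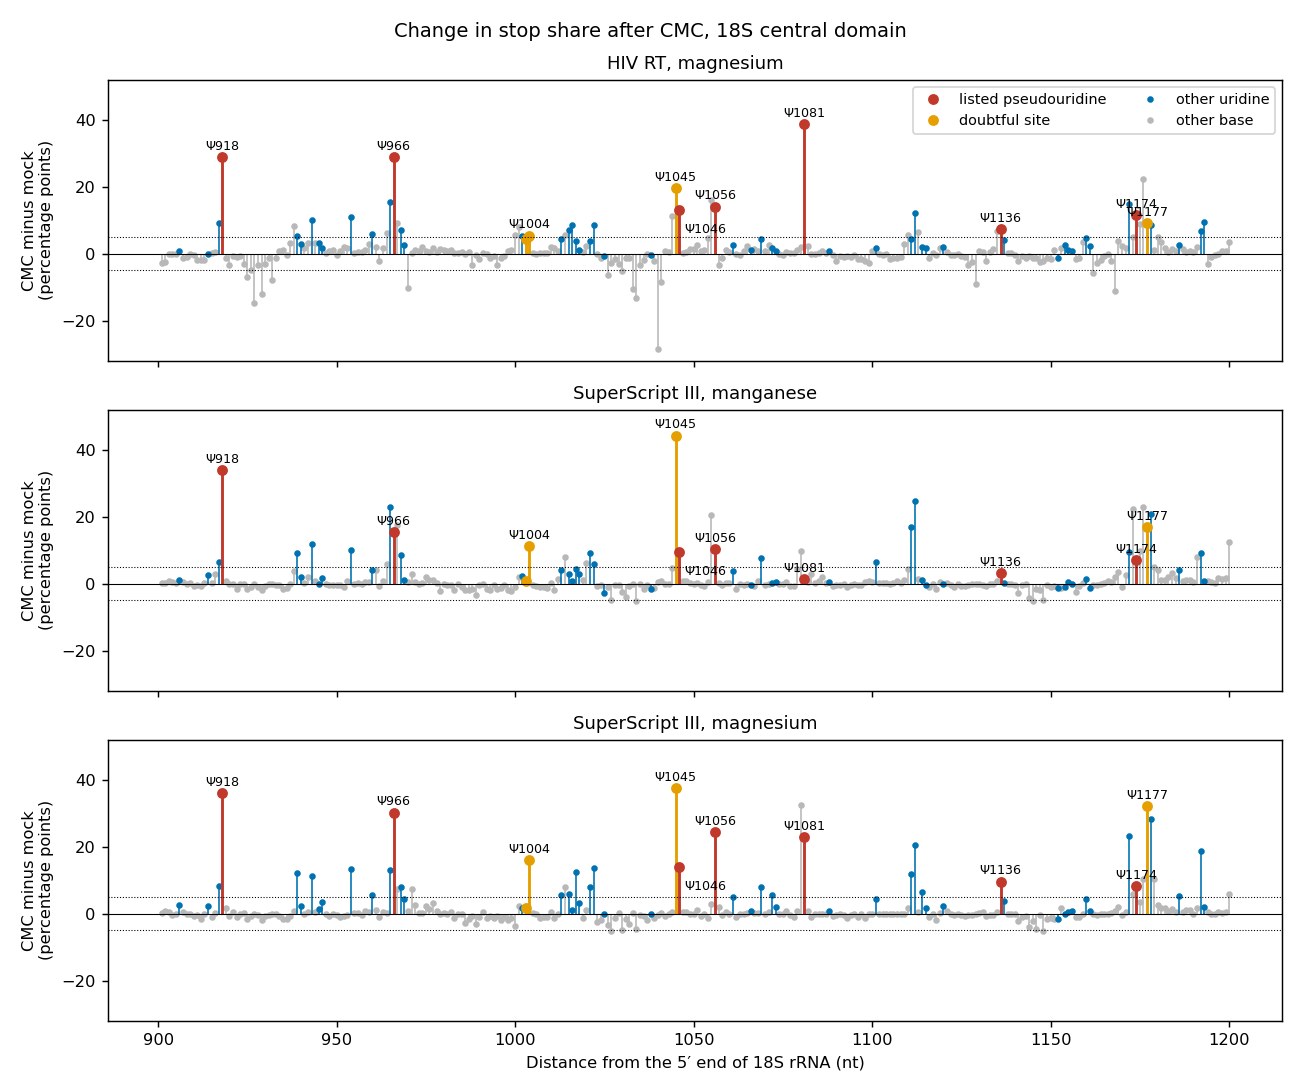
Change in stop share, CMC minus mock in percentage points, at each of the 300 positions against the distance from the 5′ end of 18S rRNA, 1 panel per reverse transcription condition. Red and orange points are the listed and doubtful sites, blue points the other uridines and grey points the other bases, and dotted lines mark 5 points in either direction. Ψ918 stood high in all 3 panels, Ψ1081 with HIV RT and SuperScript III in magnesium, and the deep falls were in the HIV RT panel.

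Ψ918 and Ψ966 were strong stops under every condition. At Ψ918, which lies between U and A, 35.0% of reads stopped in the CMC library and 6.22% in the mock library with HIV RT. With SuperScript III the shares were 42.8% against 8.94% in manganese and 41.6% against 5.66% in magnesium. The change of 28.8 points with HIV RT (95% interval 28.4 to 29.2), 33.9 in manganese and 36.0 in magnesium gave this site rank 3, 2 and 2 among the 58 U. Its mock stop share was the highest of the 11 sites with SuperScript III, and with HIV RT only Ψ1081 was higher, so part of the stopping was present without CMC. Mutation at Ψ918 stayed low, at 2.12% against 0.217% with HIV RT, 1.69% against 0.0705% in manganese and 0.258% against 0.0394% in magnesium.

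At Ψ966, between U and C, the stop share was 30.7% after CMC and 1.93% after mock treatment with HIV RT, and 32.7% against 2.49% with SuperScript III in magnesium. In manganese it was lower, 18.0% against 2.53%. The manganese change of 15.5 points was 13.4 points smaller than that with HIV RT (95% interval 13.0 to 13.7) and 14.8 points smaller than that in magnesium (14.4 to 15.2). Both flanking bases rose in stop share under every condition. The change was 15.4 points at U965 and 9.25 at C967 with HIV RT, 23.0 and 17.4 in manganese, and 13.0 and 7.51 in magnesium. In manganese both flanking changes exceeded that of the site. U968 rose in all 3 conditions too, and A964 with HIV RT and in manganese. The mutation share at Ψ966 was 4.83% against 0.471% with HIV RT, just under the size needed for a call, 2.35% against 0.0665% in manganese and 0.235% against 0.0280% in magnesium.

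Ψ1056, between A and C, stopped reads mainly at the site in magnesium and also at the next base in the other conditions. Its stop share was 25.7% after CMC and 1.22% after mock treatment with SuperScript III in magnesium, and 12.6% against 2.21% in manganese. With HIV RT it was 17.1% against 3.01%. At the base 5′ of it, A1055, the stop share was 22.6% against 1.98% in manganese and 17.1% against 1.02% with HIV RT, but 5.15% against 2.33% in magnesium, where it was not called. If a stop lies at the base not copied, copying had passed Ψ1056 before ending in many manganese and HIV RT reads. Mutation at Ψ1056 was 5.29% against 0.412% with HIV RT and 3.57% against 0.101% in manganese, and in magnesium 0.193% against 0.0409%.

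Ψ1046, Ψ1136 and Ψ1174 gave smaller stop changes. Ψ1046 stopped 14.7% of reads after CMC and 1.54% after mock treatment with HIV RT, 10.8% against 1.20% in manganese and 15.6% against 1.504% in magnesium. Ψ1136 had the smallest change of the 7 with HIV RT, 8.44% against 1.17%, and in manganese its 5.77% against 2.68% was not called. In magnesium it reached 12.2% against 2.59%. Its neighbours are C on the 5′ side and U on the 3′ side. Both sites were seldom misread. After CMC the mutation share of Ψ1046 was 1.41% against 0.191% with HIV RT, 0.876% against 0.0215% in manganese and 0.171% against 0.0193% in magnesium, and that of Ψ1136 was 1.46% against 0.472% with HIV RT, 1.07% against 0.216% in manganese and 0.143% against 0.0714% in magnesium.

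Ψ1174, between A and G, was the listed site called for both readouts in 2 conditions. There the stop share was 12.6% against 1.03% with HIV RT, 8.39% against 1.28% in manganese and 9.47% against 1.19% in magnesium. Its mutation share was 6.47% against 0.192% with HIV RT and 6.84% against 0.0543% in manganese, but 0.495% against 0.0771% in magnesium. Mutation thus rose with HIV RT and in manganese, and the change in magnesium was 0.418 points.

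Ψ1081 changed its readout most between conditions. This site lies between A residues, 1 on the 5′ side and 3 on the 3′ side. With HIV RT 46.6% of reads stopped there after CMC and 7.93% after mock treatment, a change of 38.7 points (95% interval 38.4 to 38.9) and the largest among the 58 U. With SuperScript III in manganese the stop share was 2.15% against 0.823%, a change of 1.33 points that was not called and had rank 37. The HIV RT change exceeded the manganese change by 37.3 points (37.1 to 37.6).

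In the manganese libraries Ψ1081 was misread more, and stops rose 1 nt 5′ of it. Its mutation share was 14.7% after CMC and 1.71% after mock treatment, a change of 13.0 points (12.8 to 13.1), whereas with HIV RT it was 1.596% against 0.219%. At A1080, which follows the site in the direction of copying, the manganese stop share was 14.7% against 4.78%, a called change of 9.87 points. With SuperScript III in magnesium stops returned, 24.7% against 1.70% at Ψ1081 and 38.0% against 5.40% at A1080. Mutation in magnesium was 2.45% against 0.276%, the largest mutation change of any of the 58 U in that condition. At Ψ1081 the 3 conditions thus gave stops at the site with HIV RT, misreading and stops 1 nt 5′ of it in manganese, and stops at both bases in magnesium.

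**Figure D2:**
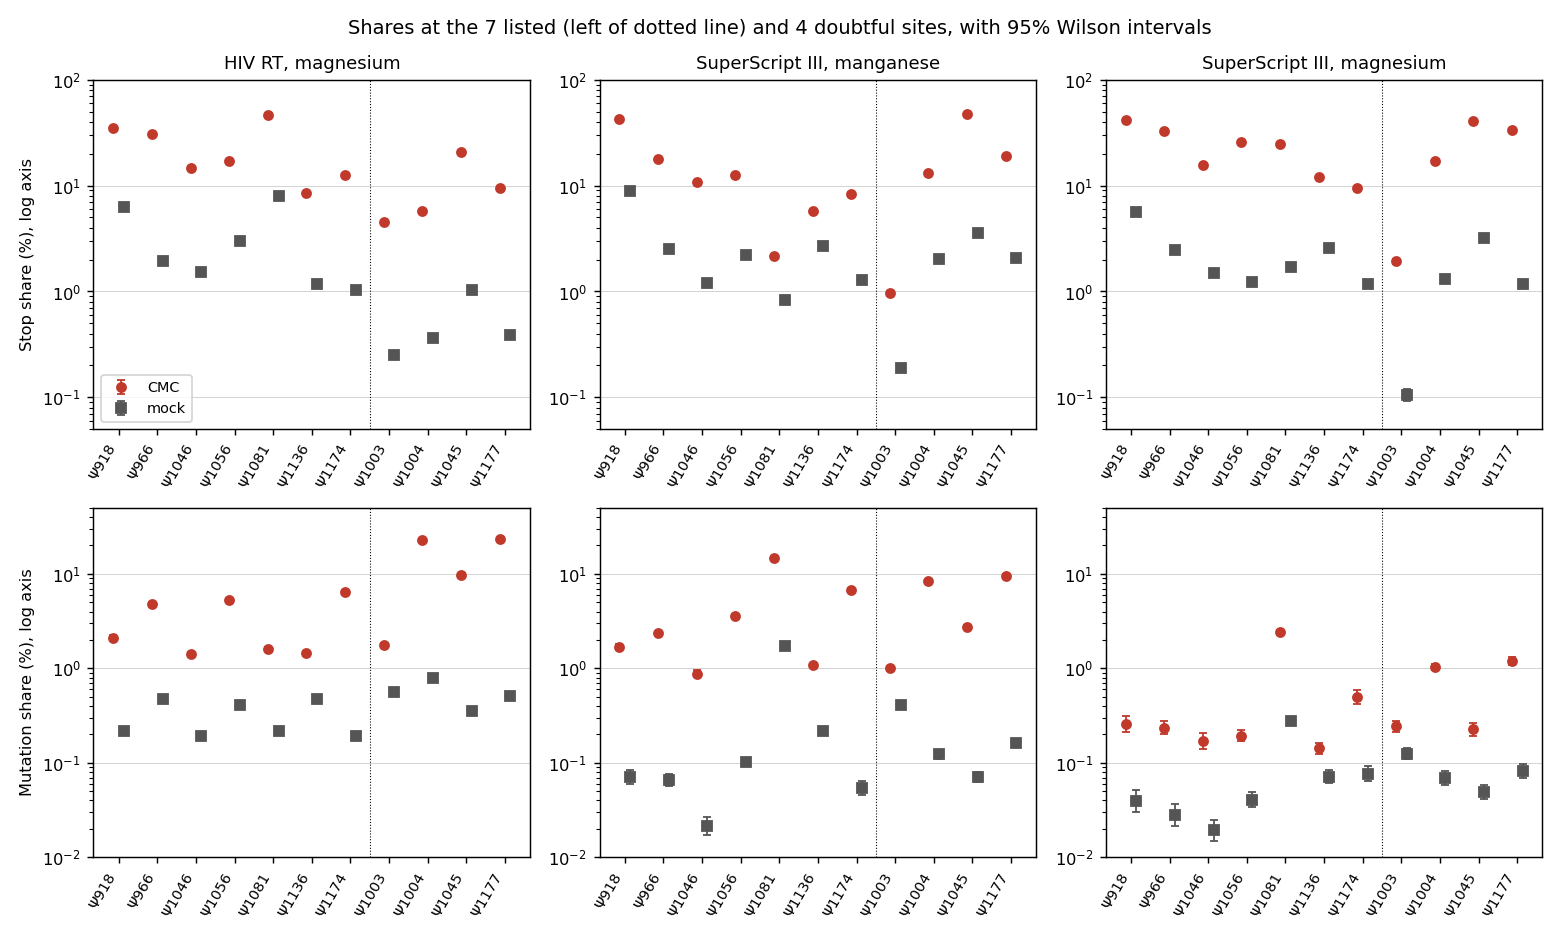
Stop share (upper row) and mutation share (lower row) in percent on a log axis at the 7 listed sites (left of the dotted line) and the 4 doubtful sites, with CMC as red circles left of mock as grey squares and 95% Wilson intervals as bars. Each CMC share lies above its mock share, and the mutation shares of Ψ1004 and Ψ1177 after CMC with HIV RT, 22.9% and 23.3%, lie above those of all 7 listed sites.

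Of the 4 doubtful sites, 3 exceeded the median mutation change of the listed sites with HIV RT and in manganese. Ψ1004, Ψ1045 and Ψ1177 rose in stop share in all 3 conditions, and Ψ1003 in none. In mutation share all 3 rose with HIV RT, and Ψ1004 and Ψ1177 in manganese. Over the 4 sites the median mutation change was 15.8, 5.50 and 0.571 points, and the median stop change 7.26, 14.1 and 24.0 points. These values describe the reads at those bases and do not settle which modification they carry.

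Ψ1177 and Ψ1004 had the largest mutation changes of the 58 U with HIV RT, 22.8 and 22.1 points. At Ψ1177, between G and U, 23.3% of crossing reads carried another base after CMC and 0.514% after mock treatment with HIV RT. The shares were 9.59% against 0.162% in manganese and 1.21% against 0.0818% with SuperScript III in magnesium. Its stop shares ran in the opposite order, 9.51% against 0.390% with HIV RT, 19.0% against 2.06% in manganese and 33.3% against 1.18% in magnesium.

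Ψ1004, between Ψ1003 and G, showed the same order. Its mutation share was 22.9% against 0.789% with HIV RT, 8.46% against 0.123% in manganese and 1.03% against 0.0694% in magnesium. Its stop share was 5.78% against 0.367%, 13.2% against 2.02% and 17.3% against 1.31% in the same 3 conditions. At both sites mutation was highest where stops were lowest. HIV RT and SuperScript III in magnesium differ in enzyme and library, and the SuperScript III conditions in cation and library.

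The adjacent Ψ1003 gave little. Its stop share was 4.51% after CMC and 0.250% after mock treatment with HIV RT, 0.957% against 0.188% in manganese and 1.92% against 0.106% in magnesium. Its mutation share was at most 1.77%, after CMC with HIV RT, against 0.559% in the mock library. Reads reach Ψ1003 only after passing Ψ1004.

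Ψ1045, between G and Ψ1046, had the largest stop changes of the stretch with SuperScript III. The stop share was 47.9% after CMC and 3.57% after mock treatment in manganese, and 40.6% against 3.21% in magnesium. With HIV RT it was 20.6% against 1.04%. Both SuperScript III changes, 44.3 and 37.4 points, were the largest among the 58 U. Mutation at Ψ1045 was 9.81% against 0.354% with HIV RT and 2.72% against 0.0706% in manganese. Ψ1046 is met 1 nt earlier than Ψ1045, and whether stops at Ψ1045 follow from Ψ1045 or from the copying of Ψ1046 was not tested.

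The size of the differences between conditions varied from site to site, while several differences had the same direction at most sites. Within SuperScript III, the stop change was smaller in manganese than in magnesium at 10 of the 11 sites, with Ψ1045 the exception at 6.84 points more. With the stops 1 nt 5′ added, a count made after the data were seen, it was smaller in manganese at 7 of the 11. It was larger at Ψ1045, Ψ1046 (46.0 against 42.2 points), Ψ1056 (25.9 against 25.0 points) and Ψ1174 (25.1 against 11.8 points). The stops added at Ψ1046 are those of Ψ1045, so the values of both sites rest on shared reads. With these stops added the median manganese change of the 7 listed sites was 25.9 points and not 9.62. The magnesium median was 35.2 points and not 23.0, so manganese stayed below magnesium. The mutation change was larger in manganese at 11 of 11 (median 2.48 points more). With HIV RT the mutation change exceeded that with SuperScript III in magnesium at 10 of the 11 sites, all but Ψ1081. Stop changes with HIV RT exceeded those in manganese at 7 of the 11 sites. No interval was computed for the differences with the stops 1 nt 5′ added. Every other one of these differences had a 95% interval that left out 0, which reflects counting error in 4 libraries and not the spread between repeated libraries.

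Over the 58 U the stop changes of the 3 conditions ran alike, with Spearman's rho of 0.743 between HIV RT and manganese, 0.805 between HIV RT and magnesium and 0.892 between the 2 cations with SuperScript III. For mutation changes rho was 0.578, 0.485 and 0.653. Mutation and stop change of the same condition were weakly related at most, with a rho of 0.247 with HIV RT, 0.0226 in manganese and 0.230 in magnesium. Uridines of 1 library share its depth, and neighbouring uridines share reads, so these values are descriptions.

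**Figure D3:**
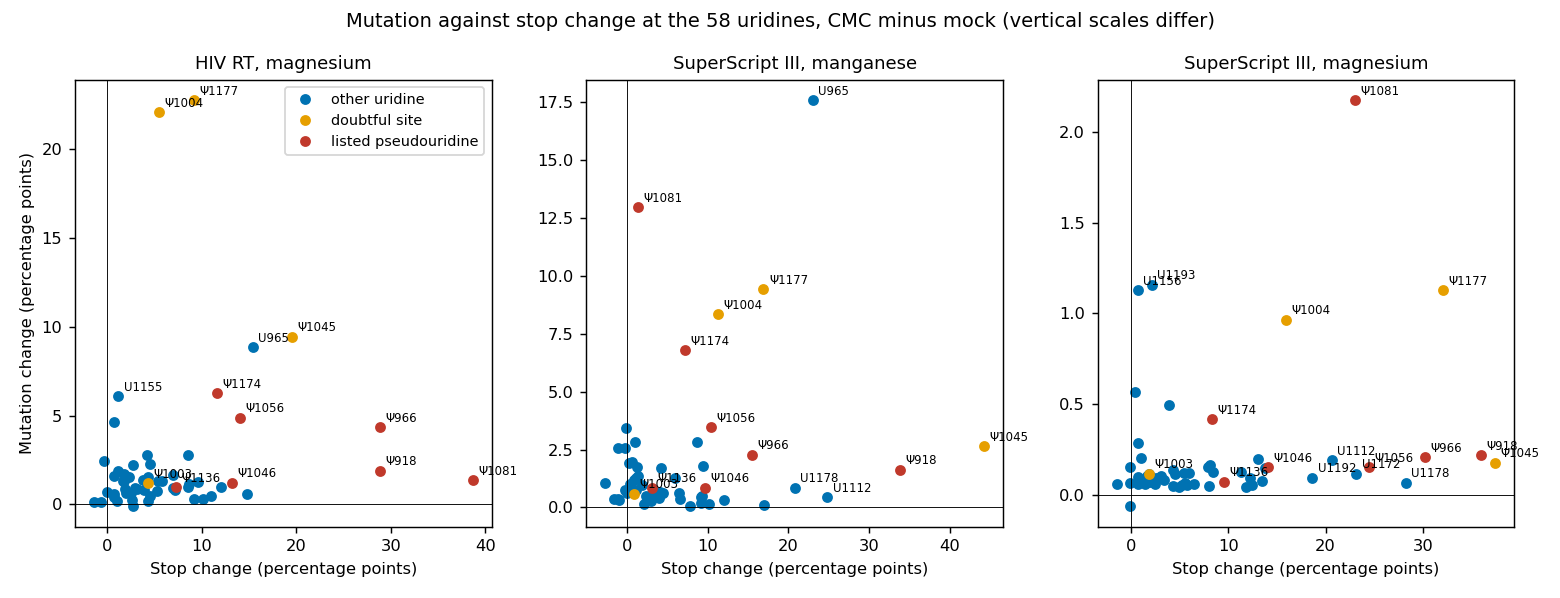
Change in mutation share against change in stop share, CMC minus mock in percentage points, for the 58 uridines in each condition, with vertical scales that differ between panels. Ψ1177 and Ψ1004 lie at the top with HIV RT, U965 and Ψ1081 at the top in manganese, and the site with the largest stop change, Ψ1081 with HIV RT and Ψ1045 with SuperScript III, lies near the bottom.

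The stop of a read that had copied a site and ended there was taken to be booked at the next base, 1 nt 5′. All reads that reached a site were therefore divided into those that stopped at it, those that ended after copying it, and those that copied it and went on, with or without a mismatch. This division was chosen after the data were seen. Whether reads that ended after copying did so because of the site or of the base 5′ of it was not tested. At Ψ1081 45.7% of the reads that reached it stopped with HIV RT after CMC and 1.94% ended after copying it, against 7.80% and 1.62% in the mock library. In manganese after CMC 1.86% stopped, 13.8% ended after copying and 12.4% went on with a mismatch, against 0.784%, 4.81% and 1.61% in the mock library. In magnesium after CMC 17.0% stopped and 31.3% ended after copying, against 1.61% and 5.36% in the mock library. The share of reads lost or misread at Ψ1081 in all 3 ways was 48.5% against 9.62% with HIV RT, 27.99% against 7.21% in manganese and 49.6% against 7.22% in magnesium.

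At Ψ1177 this sum was nearly level over the conditions although its parts were not. It was 44.8% against 2.03% with HIV RT, 41.0% against 4.06% in manganese and 39.2% against 2.36% in magnesium. With HIV RT after CMC 7.56% stopped at the site, 20.4% ended after copying it and 16.8% went on with a mismatch. In magnesium after CMC 30.7% stopped, 7.78% ended after copying and 0.743% went on with a mismatch. The reads that ended after copying Ψ1177 are the stops of G1176, a base that CMC can also modify, so the sum may not belong to Ψ1177 alone.

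The other sites differed in how large the sum was and where it fell. Ψ918 gave sums of 42.2% against 9.90%, 46.3% against 9.97% and 45.5% against 7.15%, most of it stops at the site. Ψ966 gave 41.5% against 3.25%, 36.3% against 4.34% and 40.3% against 5.03%, and in manganese more of its reads ended after copying it (20.4%, against 1.79% in the mock library) than stopped at it (14.3%, against 2.49%). Ψ1056 gave 32.5% against 4.39%, 32.6% against 4.27% and 28.7% against 3.56%, close to level over the conditions. Ψ1174 gave 21.8% against 1.79%, 33.1% against 3.13% and 15.0% against 2.85%, with the most in manganese. Ψ1003 gave 10.9% against 1.27%, 4.52% against 1.01% and 5.77% against 2.48%. At Ψ1046 and Ψ1004 the reads that ended after copying are the same reads as the stops of Ψ1045 and Ψ1003.

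**Figure D4:**
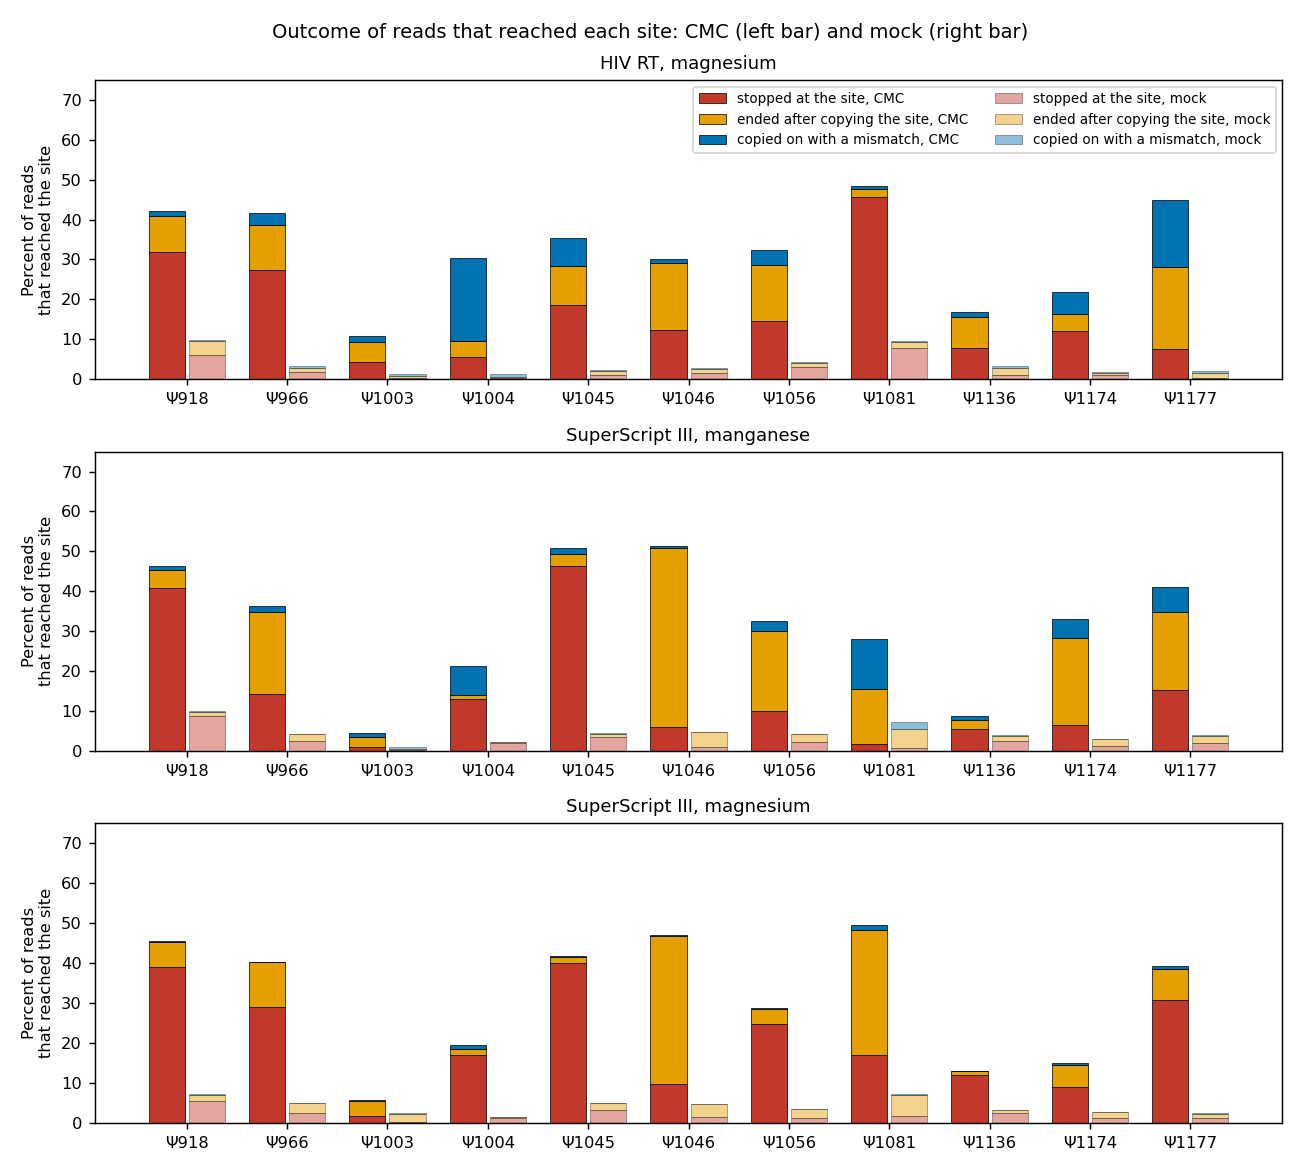
Reads that reached each of the 11 sites, in percent, divided into those that stopped at the site (red), ended after copying it (yellow) and copied on with a mismatch (blue), with the CMC bar left of the paler mock bar. At Ψ1177 the CMC bars are of like height in the 3 panels, 44.8%, 41.0% and 39.2%, while the red part grows and the blue part shrinks.

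Where the sites were misread, C was the usual wrong base with HIV RT. After CMC, C was the most frequent wrong base at 10 of the 11 sites with HIV RT, at 6 in manganese and at 9 in magnesium. In the mock libraries it led at 9, 7 and 8 of the 11, so the number of sites it led at was much the same without CMC. The size of its share was not. With HIV RT after CMC 90.4% of mismatched reads at Ψ1004 carried C, against 53.6% in the mock library. At Ψ1177 the share was 85.1% against 57.99%. At Ψ1045 C made up 82.5% against 47.2% with HIV RT, while in manganese G led, with 60.1% against 40.7%. When only C was counted as a mutation, the call was lost at Ψ1174 with HIV RT (4.97 points) and in manganese (1.996 points), at Ψ1177 in manganese (4.59 points) and at Ψ1081 in manganese (0.259 points).

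Ψ1081 was read as A. A made up 97.7% of its mismatched reads after CMC (95% interval 97.5 to 97.9) and 98.4% after mock treatment in manganese, 90.8% against 83.5% in magnesium and 79.2% against 56.9% with HIV RT. The same was seen at the unlisted U965, where A made up 99.1% after CMC against 78.6% in the mock library in manganese and 94.5% against 44.6% with HIV RT. The base 5′ of both is A, and the base 5′ of Ψ1045 is G, but the wrong base did not follow the 5′ base at all sites. At Ψ1056, which follows A, the share of A was lower after CMC, 7.89% against 18.6% in manganese and 15.8% against 22.7% with HIV RT. At Ψ1174, which also follows A, it was 42.0% against 29.5% in manganese but 16.6% against 44.6% with HIV RT. With HIV RT the share of G at the sites that follow G was lower too, 14.8% against 24.2% at Ψ1045 and 9.93% against 13.5% at Ψ1177. In manganese it was higher at both, 60.1% against 40.7% at Ψ1045 and 28.6% against 18.1% at Ψ1177. In magnesium it was 29.3% against 19.4% at Ψ1045 and 12.1% against 13.5% at Ψ1177. Over the 17 U of the stretch that follow an A, the median share of mismatched reads carrying A was 37.7% after CMC in manganese, against 18.6% in the mock library. Over the 41 other U it was 11.5% against 14.4%. With HIV RT after CMC the shares were 23.8% over the 17 U and 15.0% over the other 41, and in the mock library 32.0% and 29.7%. Over the 7 U that follow C, the share of C in manganese was 43.8% after CMC and 67.8% after mock treatment, and over the 51 other U 43.9% against 61.1%. Over the 13 U that follow G, the share of G was 29.1% against 16.1%, and over the 45 other U 17.2% against 18.3%. These shares over U were compared as descriptions, and mismatched reads are few at many of the positions.

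Stops also gathered beside the sites. Of the 7 unlisted U within 2 nt of a listed or doubtful site, 5 rose in stop share in all 3 conditions (U917, U965, U968, U1172 and U1178), and of the 40 farther unlisted U, 6 did (U939, U943, U954, U1022, U1112 and U1192). Of the 27 bases other than U within 2 nt of a site, 9 rose with HIV RT, 8 in manganese and 5 in magnesium. Of the 215 farther ones 5, 4 and 3 rose. The median stop change of the 27 was 1.20, 0.961 and 0.627 points, and that of the 215 was -0.0724, -0.137 and -0.126 points. In all, 23 positions rose in every condition, which is 57.5% of those that rose with HIV RT, 65.7% in manganese and 59.0% in magnesium. The same overlap over all tested positions is not given here, so it is not read as a trait of this stretch. The 23 positions are 19 U, and C967, G1014, A1173 and G1176. A fit over the 3 pairs of CMC and mock library, with the condition as a block (limma on log2 odds, added after the data were seen), called 37 positions higher in stop share (8.04% of all positions fitted), the 23 among them, and 1 lower (A1034, 0.666% of all). All 7 listed sites and Ψ1004, Ψ1045 and Ψ1177 were among the 37. In mutation share it called U965, Ψ1004, Ψ1081 and Ψ1177 higher (0.622% of all) and 0 lower (0.0434% of all), also at an unadjusted p under 0.05. These 37 and 4 positions are all those whose mean change over the 3 pairs was 5 points or more upward, so the p of the fit removed none. The 23 met that mean by their definition, so their place among the 37 is no separate support. The 3 pairs differ in enzyme or cation and are not repeats of 1 condition.

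The base 5′ of a site is the one reached after the site was copied. Where that base is not itself listed, which holds for 9 of the 11 sites, its stop change exceeded that of the site at 3 sites with HIV RT, 6 in manganese and 1 in magnesium. A1173, 5′ of Ψ1174, is the clearest case in manganese, with a change of 22.4 points against 7.12 at the site. G1176, between Ψ1174 and Ψ1177, stopped 23.4% of reads after CMC and 1.11% after mock treatment with HIV RT, 24.9% against 1.87% in manganese and 11.6% against 1.09% in magnesium. On the 3′ side, where the enzyme has not yet met the site, the stop change exceeded that of the site at 3 of the 9 sites with an unlisted 3′ base in manganese, and at 0 with HIV RT and magnesium. Those 3 were Ψ966, Ψ1174 and Ψ1177.

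**Figure D5:**
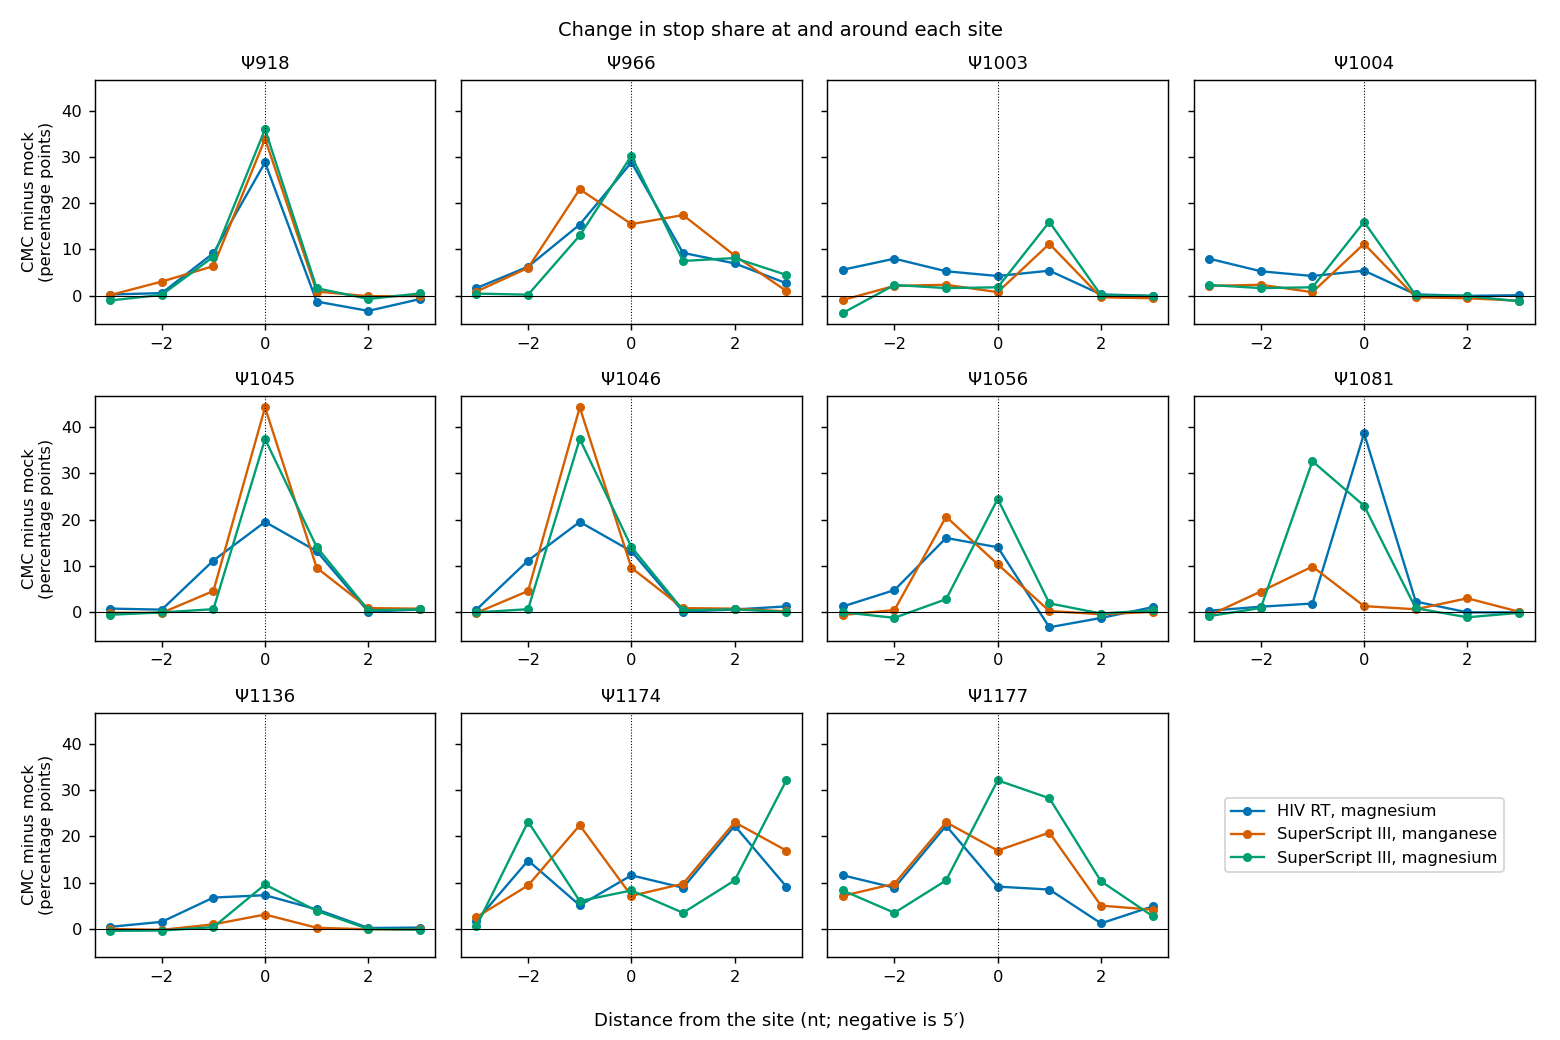
Change in stop share, CMC minus mock in percentage points, from 3 nt 5′ to 3 nt 3′ of each of the 11 sites, with 1 line per reverse transcription condition and the site at 0. Ψ918 peaks at the site in all 3 lines, while the manganese lines of Ψ1056 and Ψ1081 and the magnesium line of Ψ1081 peak 1 nt 5′.

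Some unlisted uridines changed as much as listed sites. U965, beside Ψ966, had a mutation share of 17.7% after CMC and 0.164% after mock treatment in manganese, the largest mutation change of the 58 U in that condition, and 9.44% against 0.575% with HIV RT. Its stop share was 24.8% against 1.81% in manganese, 16.3% against 0.890% with HIV RT and 15.7% against 2.65% in magnesium. Stop share thus rose at U965 in all 3 conditions and mutation share in 2. The stops at U965 are the same reads as those that ended after copying Ψ966.

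U1112, between U and A, had stops and few mutations. The stop share there was 13.8% after CMC and 1.78% after mock treatment with HIV RT, 28.9% against 4.11% in manganese and 25.5% against 4.87% in magnesium, while its mutation share was at most 1.82%. U1178, 3′ of Ψ1177, stopped 34.9% against 6.71% in magnesium, 30.9% against 10.1% in manganese and 9.19% against 0.706% with HIV RT. U1172, 2 nt 5′ of Ψ1174, stopped 24.9% against 1.71% in magnesium, 10.9% against 1.57% in manganese and 17.3% against 2.56% with HIV RT. None of the mutation changes at these 3 bases was called.

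Across the 47 unlisted U, 2 exceeded the median stop change of the listed sites with HIV RT, 6 in manganese and 2 in magnesium, and none exceeded the largest listed change. Those with HIV RT were U965 and U1172, and those in magnesium U1172 and U1178, all within 2 nt of a listed or doubtful site. The share of unlisted U whose stop share rose was 34.0%, 31.9% and 44.7%, against 31.3%, 22.6% and 35.8% of the 310 unlisted U in the rest of 18S. In mutation, 2 of the 47 rose with HIV RT (U965 and U1155) and 1 in manganese (U965). At U1155 the mutation share was 6.44% after CMC and 0.345% after mock treatment with HIV RT, and C made up 94.6% of its mismatched reads against 55.4%. Outside the uridines, mutation rose at G1175 (6.80% against 1.13%) and C1180 (11.7% against 6.18%), both in manganese.

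Unlisted U were also grouped by the base 3′ of each. The 8 unlisted U followed by A had median stop changes of 9.83, 8.59 and 12.4 points in the 3 conditions, and the 10 followed by C had 1.08, -0.279 and 1.27 points. Those followed by G (12 U) had 1.88, 2.29 and 3.88 points, and those followed by U (17 U) had 4.55, 3.00 and 6.48 points. Among the 11 sites those followed by A were Ψ918, with 28.8, 33.9 and 36.0 points, and Ψ1081, with 38.7, 1.33 and 23.0 points. The 3 sites followed by C had medians of 14.1, 10.4 and 24.5 points, the 2 followed by G 8.48, 9.16 and 12.1 points, and the 4 followed by U 8.19, 9.997 and 20.8 points. The groups are small and were not tested.

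Stop share fell after CMC mainly with HIV RT. It fell at 14 positions with HIV RT (4.67%, against 3.66% of all tested positions), 9 of them G, 3 C and 2 A, and at 2 positions each in manganese (0.667%, against 1.98% of all) and magnesium (0.667%, against 1.84% of all). No U was among them. At G1040 5.54% of reads stopped after CMC and 34.0% after mock treatment with HIV RT, whereas with SuperScript III the shares were 0.882% against 0.310% in manganese and 0.807% against 1.296% in magnesium. C927 gave 2.57% against 17.3% with HIV RT and at most 0.324% in any SuperScript III library. These stops were thus present in the HIV RT mock library without CMC.

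Falls with SuperScript III were at A. In manganese the stop share was 1.75% after CMC and 6.98% after mock treatment at A1145, and 3.88% against 8.91% at A1034. In magnesium it was 1.36% against 6.61% at A1148 and 2.53% against 7.71% at A1027. A1034 also fell with HIV RT, with 2.20% against 15.4%. Mutation share fell at 0 positions of the stretch in each condition, against 0.101% of all positions with HIV RT, 0.332% in manganese and 0.0868% in magnesium.

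No base of the stretch had a mock stop share of 20% or a mock mutation share of 5% in all 3 mock libraries. The ribose-methylated A of the list, Am1031, in which a methyl group on the 2′ oxygen leaves the pairing face of the base free, was not called in any condition. The stop share at Am1031 was 0.772% after CMC and 2.07% after mock treatment with HIV RT, 2.08% against 5.93% in manganese and 0.703% against 2.22% in magnesium. All 3 shares were lower after CMC by less than 5 points.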

How the data were processed

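Per the labels' protocols, RNA over 200 nt of HEK293T/17 cells was fragmented, treated with CMC or mock-treated, ligated to a 3′ adapter, reverse transcribed, circularised, amplified and sequenced. Trimmomatic 0.32 and Bowtie 1.0 are named per the submitters' processing notes. Not given in the sources used here are their settings, the reference sequence and how reads were counted, and no genome build applies to the positions.

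The authors deposited 12 tables, 1 for 18S (1869 positions) and 1 for 28S (5070 positions) per library. Per the file headers they hold counts of crossing reads, in all and by base, counts of stops, and a mismatch rate and stop frequency as fractions. Both fractions were recomputed from the counts within 1e-09 at every position. At most 0.00217% of crossing reads carried no base call. Stops were taken to lie at the base not copied. At 0 of the 300 positions did the crossing count rise by more than stops booked in this way allow. No other placement was checked against the crossing counts, so this does not show at which base a stop lies.

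Tests used scipy 1.17.1, with pandas 2.3.3 and numpy 2.4.6. A position needed 100 crossing reads in both libraries of a pair, which left 6935, 6924 and 6912 of 6939 positions with HIV RT, manganese and magnesium. Intervals of shares are Wilson's and those of differences Newcombe's, at 95%. Differences between 2 conditions have an interval from the binomial variances of 4 libraries. A fit with the condition as a block used limma 3.58.1 on log2 odds of the counts, with 0.5 added, at 6912 positions. It leaves 2 residual degrees of freedom, and a call needed an adjusted p under 0.05 and a mean change of 5 points. The call rule was run on simulated counts with known changes and counting error only, and the fit on simulated noise of an assumed size. Neither took its spread from repeated libraries, which these data lack.

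The modified positions were written from general knowledge, and the sites, lists and tests were chosen with earlier results of these data known. Named positions are the 11 sites, Am1031, per condition and readout the 3 unlisted positions with the largest rise and the 2 with the largest fall among those called, and the 4 unlisted positions called for stops in every condition whose mean change was largest. Others were named after their values were seen, as neighbours of a site or members of a count. Sizes needed for a call, coverage, adjustment, stop placement, the bases counted as mutation and the scale were varied.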

Additional observations from a re-analysis of the deposited data

Results flagged for a closer look

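The change at a site, CMC minus mock, differed by 20 points or more between 2 reverse transcription conditions in 6 cases, each set against counting error in 4 libraries. Ψ1081 had the widest gap, with a stop change of 38.7 points with HIV RT and 1.33 points in manganese, which differ by 37.3 points. Its stop change in manganese was also below the 23.0 points with SuperScript III in magnesium, a difference of -21.7 points. At Ψ1045 the stop change was 19.5 points with HIV RT and 44.3 points in manganese, a difference of -24.8 points. Ψ1177 had a stop change of 9.12 points with HIV RT and 32.1 points with SuperScript III in magnesium, a difference of -23.0 points. Its mutation change ran the other way, 22.8 points with HIV RT and 1.13 points in magnesium, a difference of 21.7 points. At Ψ1004 the mutation change was 22.1 points with HIV RT and 0.964 points in magnesium, a difference of 21.1 points. Each condition has 1 CMC and 1 mock library. The enzyme and the library cannot be told apart between HIV RT and SuperScript III in magnesium, nor the cation and the library between the SuperScript III conditions, nor all of these between HIV RT and manganese.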

How the results depend on the processing

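With each CMC library paired to the mock library of its condition, and the condition as a block (limma, added after seeing the data), stops were higher at 37 positions and lower at 1, where 23 and 0 were called in every condition by Fisher's exact test. Mutation was higher at 4 and lower at 0, against 0 and 0. The fit asked for a mean change of 5 points, a looser demand than 5 points in every condition. Its p removed none of the positions whose mean was higher by that much. A coverage minimum of 1000 reads, Bonferroni adjustment and adjustment over 18S alone left every count of calls over the central domain and over the 7 listed sites within 1.5 times its reported value. These settings could hardly have moved a count. The lowest crossing count in the stretch was 20063, and changes far under 5 points also passed Fisher's exact test. The mutation change of 0.0714 points at Ψ1136 in magnesium had an adjusted p of 3.85e-10. The size needed for a call moved the counts. With 2 points in place of 5, mutation rose at 14 positions with HIV RT, 21 in manganese and 1 in magnesium, and fell at 2 with HIV RT and 3 in manganese. Of the 7 listed sites 3, 4 and 1 rose in mutation. Stops rose at 76 positions with HIV RT and 62 in manganese, and fell at 42 with HIV RT, 14 in manganese and 14 in magnesium. With 10 points, mutation rose at 2 positions each with HIV RT and manganese, and at 0 and 1 of the listed sites. Stops rose at 15, 17 and 22 positions and fell at 7, 0 and 0, and 3 listed sites rose in stops in manganese. Shares of all tested positions at 2 and 10 points are not given here, so these counts cannot be set against the rest of the rRNAs.

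The median mutation change over the 7 sites, 1.90, 2.28 and 0.207 points, was 1.14, 0.746 and 0.120 points when only C was counted. On the log2 odds scale it was 3.31, 5.17 and 2.71, and as a mean 3.00, 4.12 and 0.485 points. With the doubtful sites added it was 4.36 points with HIV RT and 2.65 in manganese. The median stop change, 14.1, 9.62 and 23.0 points, was 3.34, 2.83 and 3.60 on the log2 odds scale and 20.3, 11.6 and 20.8 points as a mean. With the doubtful sites added it was 13.2 points with HIV RT and 10.4 in manganese. Taken from stops 1 nt 3′ it was 2.31, 0.896 and 1.93 points, and from stops 1 nt 5′ 9.19, 20.6 and 8.43 points. Stops at the site and 1 nt 3′ added gave 18.0, 7.83 and 15.5 points. Stops at the site and 1 nt 5′ added, a choice made after seeing the data, gave 26.5, 25.9 and 35.2 points. Stops 1 nt 3′ had the opposite sign at Ψ918 (-1.26 points) and Ψ1056 (-3.25) with HIV RT and at Ψ1004 (-0.343) in manganese. Of the 33 stop changes at single sites, 17 lost a call and 3 gained one with stops 1 nt 3′, and 8 lost and 2 gained one with stops 1 nt 5′. Of the 33 mutation changes 4 lost their call when only C was counted. At no site did the log2 odds scale change a direction, which it could not do, since both scales order the shares alike. The cause of these shifts was not tested.

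Depth limits little here, since shares of the 11 sites were measured to within 0.430 points. What limits the comparisons is 1 library per group, trimming and alignment settings that are unstated and may differ between enzymes, and stops near the end of a read that may not have been counted. Adjacent positions share reads, so stops at a neighbour lower the reads that reach the next base.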
